A study of Mus musculus with 70 samples.

Results

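The livers described here came from the 18 control (Ctr) mice of 16 weeks of age, chosen by age and maternal diet alone and with no measured value, out of 70 mice of the series that could be matched to a library. The study fed female C57BL/6 mice a control diet (AIN-93G) or a high fat diet (HFD) before mating and through pregnancy, and moved dams and pups to the same chow after birth. Male offspring were killed at 4 and at 16 weeks of age at 6 times of day, and mRNA from the liver was sequenced. The Ctr mice were male offspring of dams on the control diet, and according to the study the mice of each time point came from different litters. They were kept under 12 h of light and 12 h of darkness. Times are zeitgeber times (ZT), in hours after lights on, so that the light phase ran from 0 to 12 h and the dark phase from 12 to 24 h. Livers were taken at ZT1, ZT5, ZT9, ZT13, ZT17 and ZT21 from 3 mice each. Each mouse gave 1 liver at 1 time, so a daily profile was put together from different mice over a single cycle.

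The circadian clock of mammalian cells is a transcription loop in which ARNTL (BMAL1) pairs with CLOCK or NPAS2 to activate the Period and Cryptochrome genes, whose products then inhibit that pair. A second loop runs through the nuclear receptors REV-ERB (Nr1d1, Nr1d2) and ROR, which repress and activate Arntl. In liver these factors act together with signals from feeding, fasting, temperature and hormones, and mice are active and eat mostly in the dark. The question asked of the 18 livers was how many genes rise and fall once a day, by how much, and what peaks when.

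The libraries held between 14758382 and 20100545 counts per mouse, with a median of 16552000. Of 54532 annotated genes, the 18068 tested were those detected in no fewer than 50% of these mice. Levels are CPM, the counts of a gene scaled to a common library size by the TMM normalization of edgeR. The spread of the mice around the fitted daily curve, as the common biological coefficient of variation of the fit, was 0.180. In a principal component analysis the leading component held 25.7% of the variance and the next held 18.3%, and replicate 2 at ZT5 stood apart from the other mice on the leading one.

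The libraries were those of liver. The 8 hepatocyte markers summed to between 78202 and 131260 CPM per mouse, and Alb, which encodes albumin, was their most abundant gene with a mean of 79199 CPM. The 5 bile duct markers summed to a median of 38.6 CPM, the 5 endothelial markers to 151 CPM, the 5 stellate cell and fibroblast markers to 91.0 CPM and the 5 Kupffer cell and macrophage markers to 179 CPM. T and NK cell, B cell and neutrophil markers had medians of 1.47, 1.81 and 2.74 CPM. The 5 pancreatic acinar markers had a median of 0 CPM and a highest sum of 2.00 CPM, the 4 adipocyte markers had a median of 0 CPM and a highest sum of 5.85 CPM, and Lep had no count in any of the 18 mice. Red blood cell markers summed to between 202 and 385 CPM, led by Alas2 with a mean of 110 CPM, while the highest of the globin genes, Hbb-bs, had 97.2 CPM. In these whole-tissue samples fewer cells of a type and less RNA per cell cannot be told apart.

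Some measures of the libraries themselves moved with time of day. A 24 h cosine was tested on 13 such measures by permuting the times over the 18 mice, and 4 of 13 had an adjusted p below 0.05, 5 an unadjusted p below 0.05. The share of counts from the mitochondrial genome was 6.84%, 8.33% and 6.99% in the mice at ZT17 and 5.67%, 5.31% and 4.77% in those at ZT9. Its cosine had an amplitude of 0.979 percentage points and a peak at 16.7 h (permutation p = 0.00044, adjusted 0.00572). All 3 mice at ZT17 lay above all mice of ZT1, ZT5 and ZT9, and 1 mouse at ZT13 lay above 2 of the 3 mice at ZT17. The share of the 10 most abundant genes, between 16.4% and 21.8%, peaked at 18.3 h (permutation, adjusted p 0.0166). Red blood cell markers peaked at 19.3 h (log2 amplitude 0.30, permutation, adjusted p 0.0166), and Kupffer cell and macrophage markers at 5.89 h with 0.23 (permutation, adjusted p 0.0413). Of the 5 red blood cell markers, 3 were rhythmic in the test across all genes described next (23.4% of all genes were), and of the 5 Kupffer cell and macrophage markers also 3. Alas2, which overlaps Apex2, was not called without any 1 of 13 mice, all except replicate 3 at ZT1, replicates 2 and 3 at ZT9, replicate 2 at ZT13 and replicate 2 at ZT21. Clec4f, the most abundant Kupffer cell gene, was not among them: its level was 106, 109 and 104 CPM in the mice at ZT5 and 89.96, 88.1 and 84.7 CPM at ZT13, an amplitude of 0.069 ± 0.045 (edgeR, adjusted p 0.5104). The total count, with a permutation p of 0.462, did not pass. Without the mice of ZT5 the permutation test called 2 measures, and without those of ZT1, ZT9, ZT13 or ZT17 it called 0, with 3, 4, 3 and 4 measures at an unadjusted p below 0.05. The part of these measures in the rhythms below was not tested.

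For each gene, a cosine and a sine of a 24 h period were fitted to the counts and tested together against a constant level with edgeR. Amplitude is the height of the fitted peak above the fitted mean on the log2 scale, so an amplitude of 0.5 is a peak 2 times the trough. Values after ± are standard errors of the fit to 18 mice. The times shown for a gene are mostly those of its highest and lowest mean. Mice that do not overlap between such times are a description and no further test. Of the 18068 genes tested, 4234 (23.4%) had an adjusted p below 0.05 and are called rhythmic here, and 6417 had an unadjusted p below 0.05. Amplitudes of the rhythmic genes had a median of 0.32, a lower quartile of 0.23 and an upper quartile of 0.49, and they ran from 0.12 to 4.15. Over all genes tested the median amplitude was 0.25. An amplitude of 0.5 or more was reached by 1034 rhythmic genes (5.72% of the genes tested), 1 or more by 312, and 2 or more by 34. Most of the 4234 rhythms were thus smaller than a doubling between trough and peak. Protein-coding genes made up 3945 of the 4234, or 93.2%, and 14282 of all 18068 genes tested. Peak times had a median standard error of 0.864 h. DESeq2 called 5020 genes, 4187 of them also called by edgeR. The count was 2465 without the mice of ZT17, and between 2086 and 2338 with only 2 mice per time.

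What could be called depended on the level of the gene. Among genes with a mean below 1 CPM, 248 of 5890 (4.21%) were rhythmic, with a median amplitude of 1.22. Between 1 and 10 CPM the share was 18.9%, between 10 and 100 CPM it was 38.9%, and at 100 CPM or more 712 of 1375 genes (51.8%) were called, with a median amplitude of 0.26. Called genes of low level had wide swings, and smaller rhythms at such levels were not detectable at this depth. The 23.4% set beside each list below covers genes of all levels, and no list was tested against genes of its own level. Cholesterol synthesis (33.3%), fatty acid oxidation (32.1%) and amino acid breakdown (37.5%) lay below the 38.9% of genes between 10 and 100 CPM. So did drug metabolism (36.4%), growth hormone and male-biased genes (33.3%) and the cell cycle (18.2%), while the other lists lay above it. When time was fitted as 6 separate levels with edgeR instead of a cosine, 3472 genes were called, of which 2834 were among the 4234.

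Peaks fell at every hour of the day but not evenly. The dark phase held 2182 of the peaks (51.5%) and the light phase 2052, and with filterByExpr of edgeR the share of the dark was 49.78%. Counted in windows of 4 h, 652 genes peaked from 0 to 4 h, 924 from 4 to 8 h, 476 from 8 to 12 h, 632 from 12 to 16 h, 1046 from 16 to 20 h and the other 11.9% from 20 to 24 h. The fullest single hours were 17 to 18 h with 363 genes and 16 to 17 h with 348, and a broader rise in the light reached 264 genes between 4 and 5 h. The fewest peaks, 100, fell between 11 and 12 h, just before lights off. Among the 1034 genes with an amplitude of 0.5 or more the dark crowd was thinner: 155 peaked from 16 to 20 h, against 233 from 4 to 8 h, 192 from 0 to 4 h and 189 from 20 to 24 h. The genes that peaked from 16 to 20 h were thus many and of small swing, with a median amplitude of 0.28, while those of 20 to 24 h had the highest median, 0.40.

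**Figure D1:**
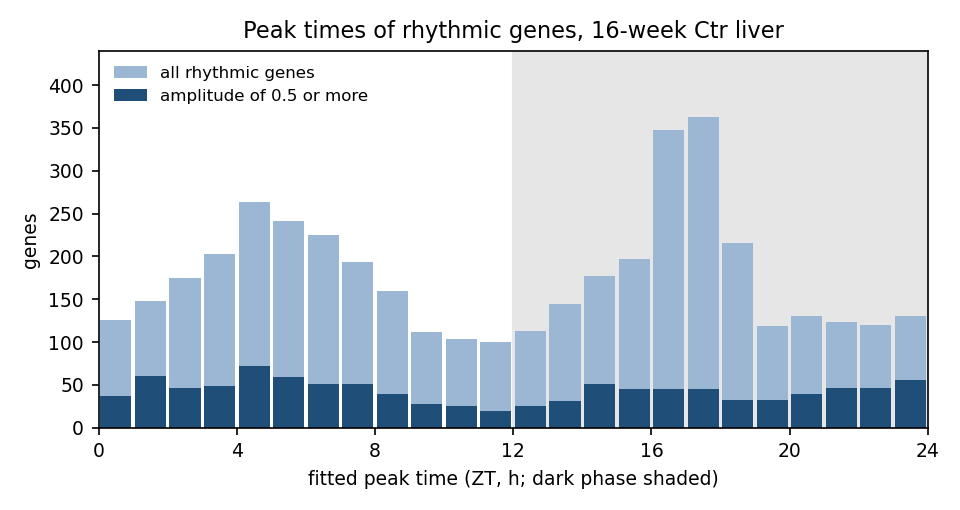
Number of rhythmic genes by the hour of their fitted peak (x axis, ZT in hours, dark phase shaded; y axis, genes), for all 4234 rhythmic genes and for the 1034 with an amplitude of 0.5 or more. The highest bar holds 363 genes at 17 to 18 h and the light-phase maximum 264 genes at 4 to 5 h.

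The genes of the 2 crowds differed in length. Rhythmic genes that peaked from 4 to 8 h had a median length of 6157 bases, and those that peaked from 16 to 20 h one of 2270.5 bases, against 3546.5 bases over all genes tested. The libraries carried a trend in the same direction: the level of short genes (854.7 bases) relative to long ones (8902 bases) was 0.28, 0.12 and 0.14 (log2) in the mice at ZT17, and -0.14, -0.13 and -0.14 in those at ZT9. It was -0.11, -0.21 and -0.061 at ZT5 and 0.17, -0.11 and 0.14 at ZT21. Every mouse at ZT13 and ZT17 was above 0 and every mouse at ZT5 and ZT9 below it, and at ZT21 replicate 2 went against the other mice. With this trend taken out of each library, edgeR called 3786 genes, 3465 of them among the 4234. The window from 4 to 8 h then held 618 genes in place of 924 and that from 16 to 20 h 949 in place of 1046, with median lengths of 4472 and 3361 bases, and 58.2% of the peaks fell in the dark. Taking out the trend also takes out any true rhythm that goes with length, and which of these it removed cannot be told apart.

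**Figure D2:**
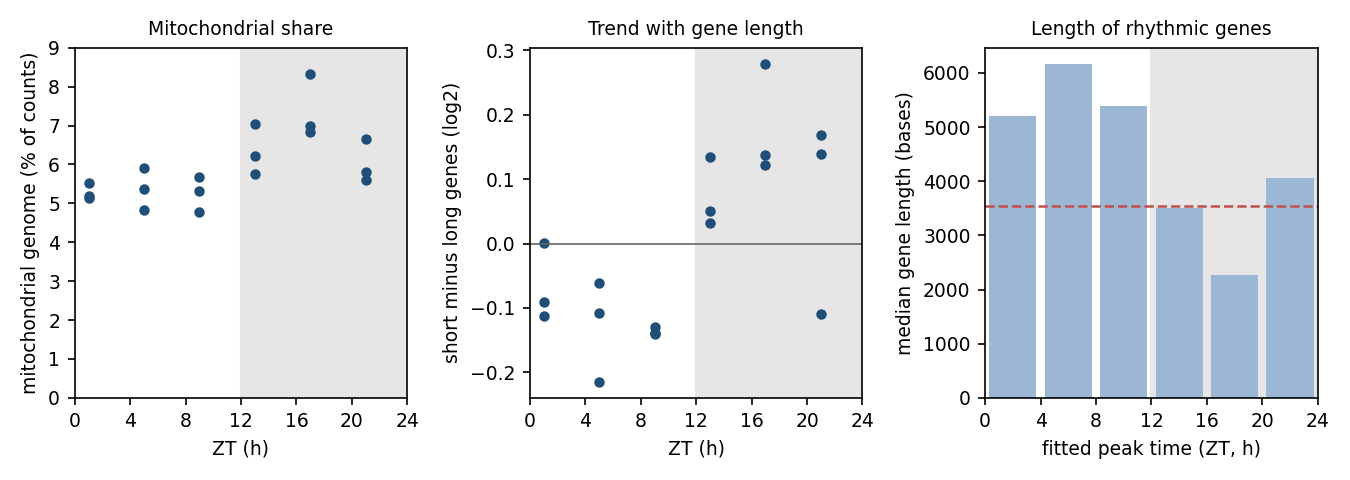
Left, share of counts from the mitochondrial genome (percent) in each of the 18 mice by ZT in hours; middle, level of short relative to long genes (log2) in each mouse; right, median length in bases of rhythmic genes by window of the fitted peak, with the median of all genes tested, 3546.5 bases, as a dashed line. The mitochondrial share ran from 4.77% to 8.33%, and the bar of the window from 16 to 20 h, at 2270.5 bases, lies below the line.

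Of 15 genes of the core clock, 14 were rhythmic, or 93.3% where 23.4% of all genes tested were, and 11 had an amplitude of 0.5 or more. Their median amplitude of 1.49 was the highest of the 24 gene lists described here. The activating arm of the loop peaked from the end of the night to lights on. Arntl (ENSMUSG00000055116, chromosome 7, 113207465 to 113314126; all positions are of GRCm38), the partner that binds DNA with CLOCK, had 24.4, 33.4 and 33.2 CPM in the mice at ZT21 and 1.06, 0.622 and 0.743 CPM at ZT9. Its fitted peak lay at 21.4 ± 0.283 h with an amplitude of 2.33 ± 0.18, a peak 25.2 times the trough (edgeR, adjusted p 1.16e-07). All mice of ZT17, ZT21 and ZT1 were far above all mice of ZT9. Npas2 (ENSMUSG00000026077, chromosome 1, 39193731 to 39363236), which can stand in for CLOCK, had 9.03, 7.17 and 14.3 CPM at ZT1 and 0, 0.1695 and 0.0572 CPM at ZT9. It had the largest amplitude of all rhythmic genes, 4.15 ± 0.37, with a peak at 23.3 ± 0.238 h (edgeR, adjusted p 6.99e-09). Its trough was at the limit of detection, since 3 of the 6 mice at ZT9 and ZT13 had no count, so the size of the amplitude rests on a few counts. Clock itself (ENSMUSG00000029238, chromosome 5, 76209868 to 76304792) moved far less, from 63.9, 68.9 and 63.5 CPM at ZT1 to 29.1, 26.8 and 26.2 CPM at ZT9, with a peak at 22.6 ± 0.432 h and an amplitude of 0.57 ± 0.065 (edgeR, adjusted p 1.24e-05). The 3 mice at ZT1 were high and the 3 at ZT9 low, with no overlap.

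The repressors of the loop peaked 1 after another from midday into the night. Nr1d1 (REV-ERB alpha, ENSMUSG00000020889, chromosome 11, 98767932 to 98775333) had 96.8, 68.1 and 69.95 CPM at ZT5 and 4.43, 1.57 and 1.58 CPM at ZT17, a fitted peak at 7.15 ± 0.241 h and an amplitude of 2.58 ± 0.18 (edgeR, adjusted p 1.27e-08). It overlaps Thra, and whether reads were counted by strand is not stated, so its level is uncertain. Its relative Nr1d2 (ENSMUSG00000021775, chromosome 14, 18204054 to 18239127) followed at 8.58 ± 0.233 h, with 107, 93.9 and 113 CPM at ZT9, 23.1, 15.03 and 10.5 CPM at ZT21 and an amplitude of 1.49 ± 0.092 (edgeR, adjusted p 2.94e-09). Both receptors were high in every mouse at ZT5 and ZT9 and low in every mouse at ZT21. Bhlhe41 (DEC2), a repressor that competes for the same sites, had 6.46, 6.27 and 5.26 CPM at ZT9 and 0.196, 0.489 and 0.524 CPM at ZT1, with a peak at 9.67 ± 0.585 h (edgeR, adjusted p 2.34e-04), and it was not called when the mice of ZT9 were left out. Ciart (CHRONO, ENSMUSG00000038550, chromosome 3, 95878503 to 95882251), a further repressor of the ARNTL pair, had 10.3, 13.2 and 17.6 CPM at ZT9 and 0.196, 0.489 and 0 CPM at ZT1. Its amplitude was 2.93 ± 0.23 with a peak at 11.7 ± 0.254 h (edgeR, adjusted p 1.67e-08). The times did not overlap, and at ZT1 the gene was at or near 0 in each mouse.

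Period and Cryptochrome genes peaked from the end of the light into the night. Per3 (ENSMUSG00000028957, chromosome 4, 151003652 to 151044665) had 29.9, 29.3 and 29.95 CPM at ZT9 and 1.67, 1.36 and 0.932 CPM at ZT1, with a peak at 11.9 ± 0.379 h and an amplitude of 1.76 ± 0.18 (edgeR, adjusted p 4.86e-06), and it overlaps Camta1. Per2 (ENSMUSG00000055866, chromosome 1, 91415982 to 91459324) had 57.5, 67.8 and 70.8 CPM at ZT17 and 11.04, 8.21 and 10.4 CPM at ZT1, with a peak at 14.05 ± 0.315 h and an amplitude of 1.41 ± 0.12 (edgeR, adjusted p 1.80e-07). The mice at ZT13 and ZT17 were all above those of ZT1, ZT5, ZT9 and ZT21 for Per2. Cry1 (ENSMUSG00000020038, chromosome 10, 85131700 to 85185064), which acts late in the loop, had 42.8, 63.2 and 60.4 CPM at ZT21 and 6.29, 5.74 and 6.202 CPM at ZT5, a peak at 19.1 ± 0.31 h and an amplitude of 1.49 ± 0.12 (edgeR, adjusted p 2.37e-07). Cry1 thus peaked a few hours before Arntl. Cry2 had a smaller swing, from 37.5, 29.7 and 37.3 CPM at ZT9 to 14.97, 17.01 and 18.8 CPM at ZT1, with an amplitude of 0.39 ± 0.083 and a peak at 12.97 ± 0.812 h (edgeR, adjusted p 0.00672). It was not called without the mice of ZT1 or with replicates 2 or 3 left out. Per1 was the least certain member: it had 36.8, 47.3 and 43.99 CPM at ZT13 and 17.4, 24.02 and 15.7 CPM at ZT1, an amplitude of 0.49 ± 0.14 and a peak at 11.4 ± 1.11 h (edgeR, adjusted p 0.0403). At ZT17 replicate 1 held 12.9 CPM and replicate 3 held 37.0 CPM, so mice of 1 time covered most of its range. It lost the call in 17 of 37 alternatives, among them 11 that left out a single mouse, namely each mouse at ZT1 and at ZT13, replicates 2 and 3 at ZT9, replicate 2 at ZT17 and replicates 1 and 2 at ZT21.

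Of the ROR receptors, activators of Arntl, Rora had 79.8, 123 and 98.8 CPM at ZT21 and 58.6, 43.8 and 79 CPM at ZT13, with a peak at 22.9 ± 0.691 h and an amplitude of 0.40 ± 0.072 (edgeR, adjusted p 0.00122), and its call ended when replicate 2 was left out. For this gene the highest mouse at ZT13 lay just under the lowest at ZT21. The clock gene without a call was Bhlhe40 (DEC1), with 174, 185 and 164 CPM at ZT9 and 58.2, 65.5 and 73.5 CPM at ZT1, an amplitude of 0.25 ± 0.18 and an adjusted p of 0.612 (edgeR). It was low in every mouse at ZT1, but at ZT17 its mice had 141, 254 and 107 CPM and at ZT21 117, 244 and 108 CPM, with replicate 2 highest at both. Per length, Rora had a mean of 5.94 CPM per kilobase, and Arntl, Clock and Npas2 had 1.9, 3.45 and 0.695.

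**Figure D3:**
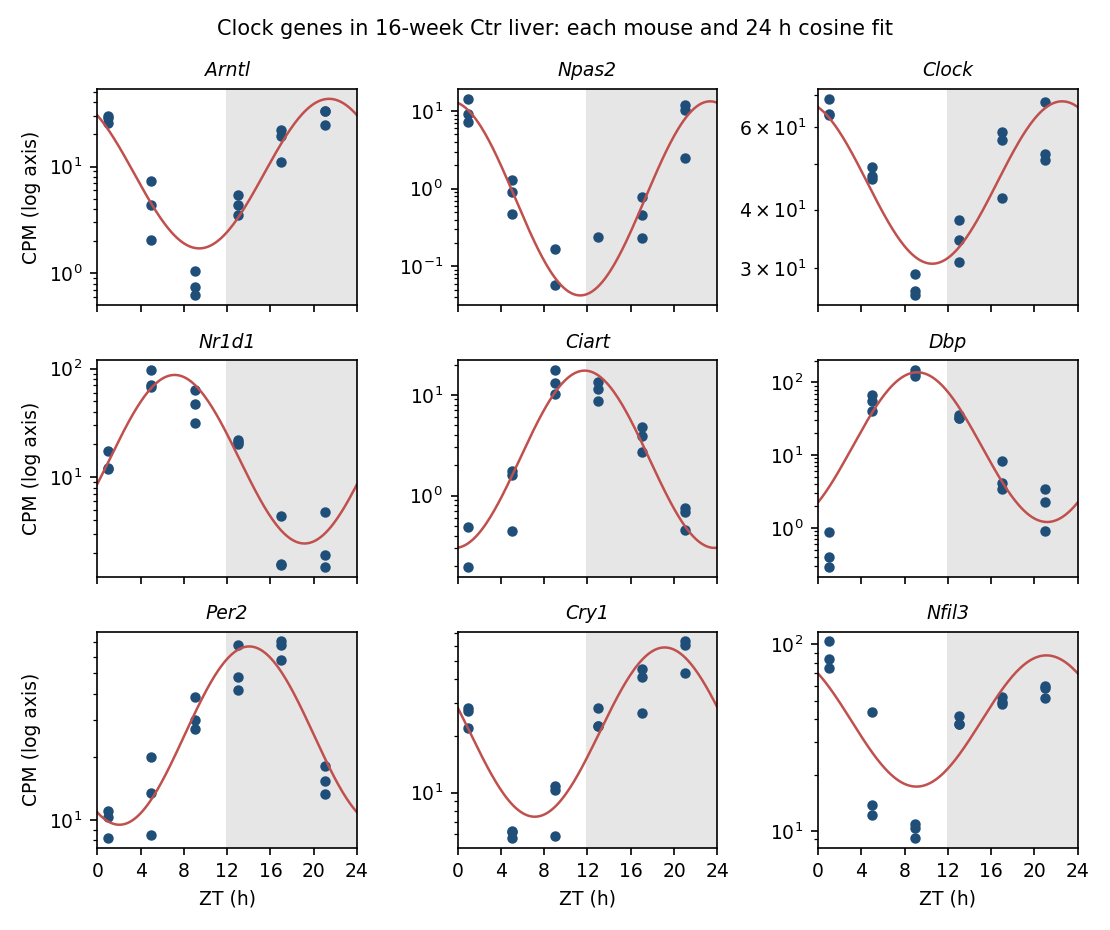
Level in CPM (log axis) of 9 clock and clock output genes in each of the 18 mice by ZT in hours, with the fitted 24 h cosine as a line; mice without a count are not drawn. The fitted peaks run from Nr1d1 at 7.15 h over Dbp at 9.17 h, Ciart at 11.7 h, Per2 at 14.0 h and Cry1 at 19.1 h to Arntl at 21.4 h, with Clock and Npas2 later still.

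All 14 of 14 genes known as direct outputs of the liver clock were rhythmic (23.4% of all genes tested), each with an amplitude of 0.5 or more, where 5.72% of all genes tested reached that. This list and that of the core clock hold known clock genes and outputs, so a high share was built into the choice. The median amplitude of the 14 output genes was 1.12, and 9 of 14 peaked from 12 to 16 h. Dbp (ENSMUSG00000059824, chromosome 7, 45705088 to 45710203), a D-box activator, had 124, 133 and 148 CPM at ZT9 and 0.393, 0.8695 and 0.291 CPM at ZT1. Its amplitude of 3.42 ± 0.29, with a peak at 9.17 ± 0.287 h, was second to that of Npas2 among protein-coding genes with a mean of at least 1 CPM (edgeR, adjusted p 1.33e-07). No mouse at ZT1 came above 1 CPM and no mouse at ZT9 below 100 CPM. Dbp overlaps Sphk2. The related activator Tef followed at 11.4 ± 0.395 h with an amplitude of 1.28, and Hlf at 12.4 ± 0.496 h with 0.55. Nfil3 (ENSMUSG00000056749, chromosome 13, 52967209 to 52981073), the repressor at the same D-box, ran opposite: it had 104, 75.2 and 83.3 CPM at ZT1 and 10.9, 10.3 and 9.15 CPM at ZT9, with a peak at 21.1 ± 0.637 h and an amplitude of 1.17 ± 0.20 (edgeR, adjusted p 0.00156). The activators were high when the repressor was low, and their mice at ZT1 and ZT9 did not overlap. Nfil3 was not called without the mice of ZT9.

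Enzymes and other outputs turned around lights off. Usp2, a deubiquitinase that overlaps Gm49380, peaked at 12.7 ± 0.335 h with an amplitude of 1.88, Noct (nocturnin) at 12.03 ± 0.411 h with 0.97, and the mitotic kinase gene Wee1 at 12.8 ± 0.432 h with 1.39. Nampt, the rate-limiting enzyme of the NAD salvage pathway, had 145, 137 and 148 CPM at ZT13 and 38.9, 38.6 and 45.9 CPM at ZT5, with a peak at 13.1 ± 0.3301 h and an amplitude of 0.86 ± 0.074 (edgeR, adjusted p 1.76e-07). Por, which passes electrons to P450 enzymes, peaked at 12.2 ± 0.451 h with 0.81, and Alas1, the entry enzyme of haem synthesis, at 13.7 ± 0.822 h with 1.08. Upp2, Tsku and Tspan4 (which overlaps Chid1) peaked at 11.1 h, 14.2 h and 14.6 h, with amplitudes of 1.02, 1.16 and 0.77. Elovl3 (ENSMUSG00000038754, chromosome 19, 46131897 to 46135307), which elongates very long chain fatty acids, had the lowest p of all 18068 genes. It had 841, 960.1 and 1030 CPM at ZT21 and 79.5, 87.6 and 90.8 CPM at ZT9, with a peak at 22.6 ± 0.152 h and an amplitude of 1.91 ± 0.076 (edgeR, adjusted p 4.01e-12). Its mice at ZT21 and ZT1 were all far above those of ZT9 and ZT13.

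The sequences before some of these genes hold the motifs that the clock factors bind. Promoter windows, from 250 bases before to 50 bases after a gene start, were taken from RefSeq (GRCm38.p6) and matched 12024 of the 18068 genes tested (66.5%), and 24 of the 29 clock and output genes. The E-box CACGTG, bound by ARNTL with its partners, was in the windows of 1324 of the 12024 genes (11%) and of 6 of the 24. A D-box, TTATGTAA or TTACGTAA, was in 0.923% of all and in 1 of the 24, and the core TAGGTCA of the ROR and REV-ERB element was in 2.58% of all and in 2 of the 24. Both strands were searched. Shares by peak window were not tested and are not reported here, since only 66.5% of the genes tested had a promoter in the table. Shown, to let the letters be read beside the peak times, are for each motif the 2 clock or output genes of largest amplitude that hold it, or the only 1. Each window runs 5′ to 3′ on the strand of its gene, with the motif in capitals. A match is a description of the letters and not a binding site. Ciart (peak at 11.7 h; chr3:95882179-95882478, minus strand) has 3 E-boxes and Bhlhe41 (peak at 9.67 h; chr6:145865371-145865670, minus strand) has 1. Per3 (peak at 11.9 h; chr4:151044616-151044915, minus strand) has 2 D-boxes. Arntl (peak at 21.4 h; chr7:113207261-113207560, plus strand) has 1 ROR element core, and Nfil3 (peak at 21.1 h; chr13:52980990-52981289, minus strand) has 1 on the opposite strand, so that it reads TGACCTA.
Ciart: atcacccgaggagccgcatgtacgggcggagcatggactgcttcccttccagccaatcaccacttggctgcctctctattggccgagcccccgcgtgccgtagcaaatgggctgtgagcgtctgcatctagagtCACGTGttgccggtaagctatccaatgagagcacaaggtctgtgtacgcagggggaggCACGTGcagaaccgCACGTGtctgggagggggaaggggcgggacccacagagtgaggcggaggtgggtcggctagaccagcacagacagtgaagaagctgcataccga
Bhlhe41: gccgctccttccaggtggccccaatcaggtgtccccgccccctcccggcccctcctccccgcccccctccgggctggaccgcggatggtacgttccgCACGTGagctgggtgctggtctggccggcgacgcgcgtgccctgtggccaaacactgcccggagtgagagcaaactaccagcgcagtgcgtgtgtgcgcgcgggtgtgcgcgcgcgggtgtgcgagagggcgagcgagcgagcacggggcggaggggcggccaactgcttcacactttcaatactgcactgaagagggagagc
Per3: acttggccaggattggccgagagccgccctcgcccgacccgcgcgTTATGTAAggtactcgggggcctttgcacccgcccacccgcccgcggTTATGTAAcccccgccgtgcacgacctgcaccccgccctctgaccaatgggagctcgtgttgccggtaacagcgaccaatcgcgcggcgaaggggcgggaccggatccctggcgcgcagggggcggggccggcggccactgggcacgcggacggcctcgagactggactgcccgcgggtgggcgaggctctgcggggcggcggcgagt
Arntl: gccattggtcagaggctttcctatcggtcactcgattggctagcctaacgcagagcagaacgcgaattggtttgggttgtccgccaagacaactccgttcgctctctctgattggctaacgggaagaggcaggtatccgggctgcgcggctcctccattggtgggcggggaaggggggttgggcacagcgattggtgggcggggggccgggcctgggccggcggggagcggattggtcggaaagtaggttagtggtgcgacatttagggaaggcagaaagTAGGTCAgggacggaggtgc
Nfil3: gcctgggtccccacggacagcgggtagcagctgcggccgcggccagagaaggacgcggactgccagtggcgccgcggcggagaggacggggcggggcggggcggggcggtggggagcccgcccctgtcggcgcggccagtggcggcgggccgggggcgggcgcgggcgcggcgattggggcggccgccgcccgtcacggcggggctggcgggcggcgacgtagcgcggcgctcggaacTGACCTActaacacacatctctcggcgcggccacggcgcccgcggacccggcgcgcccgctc

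The widest rhythms belonged to clock genes and to genes of varied function. The 10 protein-coding genes of largest amplitude at a mean of at least 1 CPM were Npas2, Dbp, Ciart, E030018B13Rik, Cdkn1a, Tubb2b, Nr1d1, Cyp2a4, Pitx3 and Arntl. Cdkn1a (ENSMUSG00000023067, chromosome 17, 29090976 to 29100727), which encodes the cell cycle inhibitor p21, had 29.8, 65.5 and 83.6 CPM at ZT21 and 1.06, 1.36 and 3.43 CPM at ZT9, with a peak at 21.98 ± 0.388 h and an amplitude of 2.64 ± 0.29 (edgeR, adjusted p 4.08e-06). The lowest mouse at ZT21 was above the highest at ZT9, with a wide spread among the high mice. Pitx3 (ENSMUSG00000025229, chromosome 19, 46135685 to 46148326) had 35.4, 51.9 and 42.03 CPM at ZT21 and 1.12, 1.47 and 2.06 CPM at ZT9, with a peak at 22.1 ± 0.202 h and an amplitude of 2.47 ± 0.14 (edgeR, adjusted p 7.24e-10). It faces Elovl3 on the other strand, with the nearest ends of the genes at 46135307 and 46135685, and both were highest at ZT21 and lowest at ZT9. Tubb2b, a tubulin, had 4.12, 5.87 and 4.25 CPM at ZT1 and 0.186, 0.0565 and 0.0572 CPM at ZT9, with an amplitude of 2.61 ± 0.48 (edgeR, adjusted p 6.75e-04). E030018B13Rik, which overlaps Klf13, had 6.62, 2.22 and 6.17 CPM at ZT17 and 0.0557, 0 and 0.4001 CPM at ZT5, with an amplitude of 2.74 ± 0.32 (edgeR, adjusted p 3.24e-06). Both were near 0 at their trough. Cyp2a4 was a case of few mice: it had 0.613, 42.3 and 0.533 CPM at ZT5, 2.61, 0.339 and 29.04 CPM at ZT9 and 0.288, 1.04 and 0.646 CPM at ZT17, with an amplitude of 2.55 ± 0.62 (edgeR, adjusted p 0.00553). A single mouse was high at each of ZT5 and ZT9, and the other mice at ZT5 lay within the range of those at ZT17.

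The protein-coding genes of lowest p in each window, at an amplitude of at least 0.5 and a mean of at least 5 CPM, show what peaked when. From 0 to 4 h these were Crot, Cbs, Spon2, Eps8l2 and Asap2. Crot, which moves fatty acyl groups out of peroxisomes, had 606, 901 and 901 CPM at ZT5 and 243, 211 and 259 CPM at ZT13 and peaked at 3.34 ± 0.307 h with an amplitude of 0.92 ± 0.074 (edgeR, adjusted p 1.44e-07). Spon2 had the widest swing of the 5, from 21.6, 23.3 and 25.2 CPM at ZT1 to 1.68, 2.404 and 1.86 CPM at ZT13, an amplitude of 1.49 ± 0.13 (edgeR, adjusted p 2.13e-07). In both genes the early mice were high and those at ZT13 low, without overlap. From 4 to 8 h Nr1d1 was joined by Tns2, Slc4a4, St6gal1 and Trib3, with peaks between 4.35 h and 6.59 h. Trib3, a pseudokinase that binds AKT, had 13.3, 20.02 and 11 CPM at ZT5 and 2.36, 1.89 and 1.79 CPM at ZT17, with an amplitude of 1.40 ± 0.14 (edgeR, adjusted p 1.71e-06). From 8 to 12 h, beside Nr1d2, Ciart and Dbp, stood Pcsk4, with 38.9, 34.6 and 31.2 CPM at ZT9 and 5.25, 5.54 and 5.94 CPM at ZT1, and the endothelial lipase gene Lipg, with 33.6, 42.3 and 50.6 CPM at ZT9 and 7.89, 8.29 and 6.51 CPM at ZT21. Their amplitudes were 1.41 and 1.31. For both, the 3 mice at ZT9 were all far above the 3 at the trough.

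In the dark phase, the genes of lowest p from 12 to 16 h were Tspan4, Asl, Thrsp, Coa6 and Nampt. Thrsp (Spot14, ENSMUSG00000035686, chromosome 7, 97412938 to 97417730), a factor of fatty acid synthesis, had 2240, 2868 and 1882 CPM at ZT17 and 118, 102 and 158 CPM at ZT5, with a peak at 15.8 ± 0.263 h and an amplitude of 2.05 ± 0.14, a peak 17.2 times the trough (edgeR, adjusted p 2.59e-08). All mice at ZT13 and ZT17 were far above all mice at ZT5. From 16 to 20 h Cry1 was among them, with Fmo5, Serpine2 and Fgf1 (which overlaps Arhgap26). Fmo5, a flavin monooxygenase, had 1314, 1390 and 1522 CPM at ZT17 and 458, 487 and 549 CPM at ZT5, with a peak at 16.3 ± 0.232 h and an amplitude of 0.80 ± 0.048 (edgeR, adjusted p 2.25e-09). From 20 to 24 h, beside Elovl3 and Pitx3, stood Clpx, Insig2 and St5, which peaked at 23.3 h, 23.3 h and 23.2 h. Insig2, which holds SREBP factors in the endoplasmic reticulum, had 323, 469 and 383 CPM at ZT21 and 76.7, 77.98 and 89.9 CPM at ZT9, with an amplitude of 1.2 (edgeR, adjusted p 1.27e-08). Clpx, a mitochondrial protease subunit that also activates ALAS, had 267, 335 and 325 CPM at ZT21 and 58.8, 60.01 and 73.97 CPM at ZT9, with an amplitude of 1.25 ± 0.076 (edgeR, adjusted p 2.94e-09). For each of these genes the mice of the peak and of the trough did not overlap. The genes were picked by p and the times by their means, so this adds no support.

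Of 21 genes of fatty acid and triglyceride synthesis, 12 were rhythmic (57.1%, against 23.4% of all genes tested), with a median amplitude of 0.61 and a mean peak at 17.7 h. The peaks of the genes named from the list ran from the night to just after lights on: Thrsp peaked at 15.8 h, Agpat2 (which overlaps Egfl7 and Gm20532) at 19.1 h, the carboxylase gene Acacb at 19.6 h, the desaturase gene Scd1 at 0.269 h and the elongase gene Elovl5 at 0.762 h. Elovl5 had 693, 708 and 839 CPM at ZT1 and 216, 216 and 257 CPM at ZT13, with an amplitude of 0.81 ± 0.094 (edgeR, adjusted p 1.82e-05). Acacb had 135, 362 and 221 CPM at ZT21 and 84.3, 52.4 and 60.4 CPM at ZT5, with an amplitude of 0.80 ± 0.12 (edgeR, adjusted p 2.11e-04). Scd1, the most abundant member by count, had 8843, 12745 and 13944 CPM at ZT1 and 4789, 2655 and 5078 CPM at ZT13, with an amplitude of 0.59 ± 0.14 (edgeR, adjusted p 0.00882). The mice of the high and low times did not overlap in any of the 3 genes, and at ZT21 the Scd1 levels of 4723, 13628 and 9598 CPM spread over most of its range. Scd1 was not called without the mice of ZT1 or of ZT13, or without replicate 2.

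Cholesterol synthesis was rhythmic in part. Of 24 genes, 8 (33.3%) were called, where 23.4% of all genes tested were, with a median amplitude of 0.36, and 7 of the 8 peaked from 16 to 24 h, with a mean peak of the 8 at 19.7 h. Pmvk, the phosphomevalonate kinase gene, had 96.01, 129 and 140.5 CPM at ZT21 and 54.6, 44.3 and 41.6 CPM at ZT13, with a peak at 20.5 ± 0.497 h and an amplitude of 0.69 ± 0.09 (edgeR, adjusted p 3.22e-05). Ebp, Acat2 and Dhcr7, further enzymes of the pathway, peaked at 20.1 h, 19.5 h and 20.2 h with amplitudes of 0.27, 0.35 and 0.37, and Dhcr7 was not called without the mice of ZT21, of replicate 1 or of replicate 2. The list had 14 calls without the mice of ZT13, 5 without those of ZT5, 5 without either replicate 1 at ZT17 or replicate 3 at ZT21, 5 with both diets in 1 fit, and 4 and 3 without all mice of replicate 1 and of replicate 2.

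Bile acid genes split over the day. Of 18 genes, 11 (61.1%) were rhythmic, where 23.4% of all genes tested were, and their peaks fell in all 6 windows. The pair Abcg5 and Abcg8, whose products together pump sterols into bile, peaked at 8.08 h and 6.39 h. Abcg8 had 99.4, 146 and 100.1 CPM at ZT5 and 34.2, 32.9 and 26.8 CPM at ZT17, with an amplitude of 0.83 ± 0.094 (edgeR, adjusted p 1.05e-05). Abcg5 had 86.3, 73.3 and 94.3 CPM at ZT9 and 36.9, 41.3 and 33.01 CPM at ZT17, with an amplitude of 0.65 ± 0.083 (edgeR, adjusted p 3.71e-05). Both transporters were high at ZT9 and low at ZT17 in each mouse, and the genes overlap each other. Cyp2c70, which makes the muricholic acids of the mouse, ran opposite, with 865, 1218 and 719.9 CPM at ZT17 and 262, 399 and 317 CPM at ZT5, a peak at 17.9 ± 0.449 h and an amplitude of 0.83 ± 0.10 (edgeR, adjusted p 1.82e-05). Abcb11, the bile salt export pump, peaked at 1.67 ± 0.563 h with an amplitude of 0.53. The ligase gene Slc27a5, the most abundant by count, was not called: 801, 893 and 1012 CPM at ZT17 and 838, 855 and 848 CPM at ZT9 overlapped, with an amplitude of 0.034 ± 0.038 (edgeR, adjusted p 0.789).

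Of 28 genes of fatty acid oxidation and ketogenesis, 9 (32.1%, against 23.4%) were rhythmic, with a median amplitude over all 28 of 0.20, below the 0.25 of all genes tested, and of 0.56 over the 9. The regulator Ppara, a nuclear receptor for fatty acids, had 109.9, 151 and 131 CPM at ZT9 and 48.4, 66.6 and 50.8 CPM at ZT17, with a peak at 7.701 ± 0.498 h and an amplitude of 0.65 ± 0.085 (edgeR, adjusted p 3.62e-05). Cpt1a, which admits fatty acids to mitochondria, had 484, 524 and 685 CPM at ZT9 and 218, 205 and 197 CPM at ZT17, with a peak at 7.47 ± 0.454 h and an amplitude of 0.67 ± 0.079 (edgeR, adjusted p 1.63e-05). Both were high before lights off in every mouse and low at ZT17, and the ketone body enzyme gene Bdh1 peaked with them at 7.21 ± 0.499 h. Pdk4, which shuts pyruvate out of the citric acid cycle, peaked instead at 22.6 ± 0.391 h, with 39.6, 27.2 and 36.6 CPM at ZT1 and 2.92, 4.803 and 3.37 CPM at ZT9 and an amplitude of 1.55 ± 0.16 (edgeR, adjusted p 3.92e-06). Fabp1, the most abundant member by count, had an amplitude of 0.32 and a peak at 13.1 ± 0.798 h, and was not called when replicate 2 was left out.

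Of 19 genes of glucose metabolism, 12 (63.2%, against 23.4%) were rhythmic, with a median amplitude of 0.70. Gys2, the glycogen synthase of liver, had 271, 236 and 272 CPM at ZT9 and 102, 86.2 and 91.5 CPM at ZT1, with a peak at 10.8 ± 0.411 h and an amplitude of 0.75 ± 0.081 (edgeR, adjusted p 5.59e-06). Ppp1r3b, which brings a phosphatase to glycogen, had 489, 678 and 502 CPM at ZT17 and 149.6, 183 and 186 CPM at ZT5, with a peak at 18.5 ± 0.439 h and an amplitude of 0.75 ± 0.086 (edgeR, adjusted p 1.51e-05). Slc37a4, which carries glucose 6-phosphate, and Pfkfb1 (which overlaps Apex2), a regulator of glycolysis, peaked at 13.5 h and 18.2 h with amplitudes of 0.58 and 0.77. In each of these genes the mice at the high and low time did not overlap. Pck1, the gluconeogenic enzyme gene and the most abundant member by count, had no call with a 24 h cosine (edgeR, adjusted p 0.6002), yet its mice had 3793, 4351 and 4784 CPM at ZT13 and 1394, 1977 and 2563 CPM at ZT17. It was thus high just after lights off and lowest 4 h later, without overlap of these times, and was called only without the mice of ZT13.

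Among 24 genes of amino acid breakdown and the urea cycle, 9 (37.5%, against 23.4%) were rhythmic. Between 10 and 100 CPM the share over all genes was 38.9%. Asl, the argininosuccinate lyase gene, had 865, 821 and 1040 CPM at ZT17 and 374, 343 and 413 CPM at ZT5, with a peak at 15.9 ± 0.277 h and an amplitude of 0.67 ± 0.049 (edgeR, adjusted p 1.70e-08). Cbs, which turns homocysteine to cystathionine, had 622, 674 and 595 CPM at ZT1 and 297, 287 and 285 CPM at ZT13, with a peak at 2.58 ± 0.314 h and an amplitude of 0.60 ± 0.049 (edgeR, adjusted p 1.44e-07). Bhmt, which turns homocysteine back to methionine, peaked at 20.7 ± 0.686 h with an amplitude of 0.69, and Agxt, which detoxifies glyoxylate, at 4.18 ± 0.617 h with 0.57. Each was higher in all mice of its peak than in all of its trough. Cps1, the entry enzyme of the urea cycle and the most abundant by count, was not called, with 2752, 3956 and 4724 CPM at ZT17 and 2684, 2957 and 3540 CPM at ZT9, which overlapped (edgeR, adjusted p 0.369).

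Hormone pathways gave mixed counts. Of 17 genes of insulin and IGF signalling and fasting, 8 (47.1%, against 23.4%) were rhythmic, among them the insulin receptor gene Insr with a peak at 5.49 ± 0.658 h and an amplitude of 0.28. Igf1 had 874, 993 and 809 CPM at ZT17 and 588, 593 and 532 CPM at ZT5, with a peak at 15.5 ± 0.582 h and an amplitude of 0.33 ± 0.05 (edgeR, adjusted p 2.12e-04). Igfals, whose product carries IGF1 in blood, peaked with it at 15.7 ± 0.536 h with an amplitude of 0.53. Of 10 glucocorticoid genes tested 5 (50%, against 23.4%) were called, spread over 5 of the 6 windows. Fkbp5, a chaperone of the glucocorticoid receptor, had 119.7, 120.1 and 161 CPM at ZT13 and 28.2, 37.1 and 28.6 CPM at ZT5, with a peak at 13.7 ± 0.533 h and an amplitude of 0.92 ± 0.13 (edgeR, adjusted p 5.01e-05). It was high at ZT13 in each of the 3 mice. Sgk1 peaked at 3.63 ± 0.635 h, and the metallothionein gene Mt1 at 5.56 ± 1.08 h with an adjusted p of 0.0319 (edgeR) that rose past 0.05 without replicate 1 or 2 at ZT5 or any 1 of the 3 mice at ZT17. Errfi1, the most abundant member by count, was not called (edgeR, adjusted p 0.377). The count of the list fell to 3 without replicate 1 at ZT5, replicate 2 at ZT17 or replicate 3 at ZT17, and without all mice of ZT5 or of replicate 2.

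Of 12 genes of growth hormone signalling and male-biased expression, 4 (33.3%, against 23.4%) were rhythmic. Stat5b, which carries the growth hormone signal, had 69.9, 112 and 97.03 CPM at ZT21 and 43.3, 39.7 and 48.1 CPM at ZT13, with a peak at 0.729 ± 0.545 h and an amplitude of 0.57 ± 0.081 (edgeR, adjusted p 1.43e-04). The 3 mice at ZT21 were all above the 3 at ZT13. The male-biased genes Cyp4a12a, Cyp2d9 and Serpina1e had amplitudes of 0.29, 0.26 and 0.26, and all have close relatives, so reads that fit more than a single gene may be missing. Cyp2d9 was not called without replicate 2 at ZT13 or all mice of ZT1, ZT13, ZT17 or replicate 1 or 2, and Serpina1e lost its call without any 1 of 10 mice: replicate 1 at ZT1, replicates 1 and 3 at ZT5, 1 and 2 at ZT9, 3 at ZT13, 1 and 2 at ZT17 and 1 and 3 at ZT21. Cyp4a12a was not called without the mice of ZT1, ZT5, ZT13 or replicate 1 or 2, and its high and low mice overlapped. The count of the list fell to 2 without the mice of ZT1, of ZT5, of ZT13 or of replicate 2, and to 1 without those of replicate 1.

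Of 14 hormones and regulators secreted by liver, 6 (42.9%, against 23.4%) were rhythmic. Serpina6, the gene of the corticosteroid-binding globulin, had 263, 225 and 269 CPM at ZT9 and 119, 153 and 135 CPM at ZT1, with a peak at 11.4 ± 0.493 h and an amplitude of 0.49 ± 0.064 (edgeR, adjusted p 4.23e-05). Leap2, a ghrelin receptor antagonist, had 52.99, 52.4 and 51.7 CPM at ZT17 and 19.1, 14.99 and 21.01 CPM at ZT13, with a peak at 19.7 ± 0.6898 h and an amplitude of 0.68 ± 0.12 (edgeR, adjusted p 0.00102). Leap2 thus went from its lowest to its highest level within 4 h, with no overlap of the mice. Inhbe, which encodes activin E, peaked at 10.1 ± 0.601 h with an amplitude of 0.83. Ahsg, the most abundant member by count, had an amplitude of 0.063 ± 0.054 and was not called (edgeR, adjusted p 0.679).

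Drug metabolism was rhythmic in 8 of 22 genes (36.4%, against 23.4%), none of them with a peak from 20 to 4 h. Cyp2a5, which hydroxylates coumarin, had 1172, 1456 and 1907 CPM at ZT13 and 236, 289 and 209 CPM at ZT1, with a peak at 12.8 ± 0.352 h and an amplitude of 1.32 ± 0.12 (edgeR, adjusted p 1.02e-06). The 3 mice at ZT13 were all far above the 3 at ZT1. Its sequence is close to that of Cyp2a4, and according to the study only uniquely mapped reads were counted, so reads that fit both may be missing. Gstt2 peaked at 11.7 ± 0.5697 h with an amplitude of 0.62, and the export pump genes Abcc2 and Abcc3 at 7.04 h and 6.47 h with 0.37 and 0.30. Cyp2e1, the most abundant by count, had an amplitude of 0.37 ± 0.071 and a peak at 11.97 ± 0.727 h (edgeR, adjusted p 0.00239), and was not called without the mice of ZT1 or with replicate 2 left out. In NAD metabolism, apart from Nampt, 7 of 17 genes (41.2%, against 23.4%) were called. Nmrk1, the nicotinamide riboside kinase gene, had 41.2, 40.2 and 36.5 CPM at ZT13 and 15.9, 15.8 and 10.02 CPM at ZT1, with a peak at 13.7 ± 0.473 h and an amplitude of 0.78 ± 0.10 (edgeR, adjusted p 3.21e-05), within an hour of the peak of Nampt. In the kynurenine pathway Kynu peaked at 0.853 ± 0.532 h, Haao at 20.8 ± 0.86 h and Afmid (which overlaps Gm20708 and Tk1) at 20.6 ± 0.8997 h, with amplitudes of 0.41, 0.18 and 0.28, and Afmid was not called without the mice of ZT9, nor Haao or Afmid without those of replicate 1 or 3. The count of the NAD list was 4 without the mice of ZT17, 3 without those of ZT9 or of replicate 1 and 2 without those of replicate 3. That of the drug list was 5 without the mice of replicate 2.

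Of 12 autophagy genes, 7 (58.3%, against 23.4%) were rhythmic. Gabarapl1, a protein of the autophagosome membrane, had 359, 346 and 402 CPM at ZT5 and 143, 113 and 136 CPM at ZT17, with a peak at 4.34 ± 0.404 h and an amplitude of 0.65 ± 0.068 (edgeR, adjusted p 5.70e-06). Its 3 mice at ZT5 were above all other mice, and the cargo receptor gene Sqstm1 (which overlaps Mrnip) peaked earlier, at 1.39 ± 0.576 h. Bnip3, a receptor for mitochondria, peaked at 13.1 ± 0.451 h with an amplitude of 0.51, and Wipi1, which was not called without the mice of ZT17 or of replicates 1 or 3, at 6.51 ± 0.738 h with 0.31. In the cell cycle 2 of 11 genes (18.2%, against 23.4%) were called. Ccnd1, a G1 cyclin that overlaps Oraov1, had 24.5, 33.6 and 53.9 CPM at ZT9 and 6.06, 12.2 and 7.01 CPM at ZT21, with a peak at 7.83 ± 0.468 h and an amplitude of 1.06 ± 0.13 (edgeR, adjusted p 2.22e-05). The other, Ccne2 (which overlaps Ints8), was not called when any 1 of 6 mice was left out, namely replicates 1 and 3 at ZT1, replicate 1 at ZT5, replicates 2 and 3 at ZT13 and replicate 2 at ZT17, nor without all mice of any 1 replicate number. The autophagy count was 4 without the mice of replicate 3.

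Immediate early genes, which respond to stimuli within minutes, were rhythmic in 5 of 11 cases (45.5%, against 23.4%), with a median amplitude of 1.44. Egr1 had 122, 32.5 and 32.8 CPM at ZT1 and 3.23, 2.78 and 7.06 CPM at ZT13, with a peak at 1.21 ± 0.461 h and an amplitude of 1.83 ± 0.23 (edgeR, adjusted p 1.45e-05). Nr4a1 had 67.8, 17.1 and 28.3 CPM at ZT5 and 4.98, 2.78 and 4.85 CPM at ZT13, with a peak at 5.15 ± 0.743 h and an amplitude of 1.44 ± 0.29 (edgeR, adjusted p 0.00149). In both genes replicate 1 was far above the other mice of the high time, and still none of the high mice overlapped with those at ZT13. Junb, which overlaps Prdx2, peaked at 3.72 ± 0.971 h and lost its call without replicate 1 at ZT5 or any 1 mouse of ZT17, and Klf6, not called without the mice of replicate 1 or 2, peaked at 2.36 ± 0.782 h. Nr4a1 was not called without the mice of ZT5. Only 3 were called without replicate 3 at ZT17, without all mice of ZT5 or of ZT17, and without all mice of any 1 replicate number.

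Heat shock genes formed a compact group in the night. Of 17, 15 (88.2%, against 23.4%) were rhythmic, with a median amplitude of 0.50, and 12 of the 15 peaked from 16 to 20 h, with a mean of 17.9 h. Hsp90aa1, a cytosolic HSP90, had 324, 445 and 445 CPM at ZT17 and 138, 183 and 128 CPM at ZT9, with a peak at 19.01 ± 0.523 h and an amplitude of 0.67 ± 0.092 (edgeR, adjusted p 1.17e-04). Its cochaperone gene Fkbp4 had 314, 309.9 and 327 CPM at ZT17 and 149, 164 and 119.5 CPM at ZT9, with a peak at 19.3 ± 0.475 h and an amplitude of 0.56 ± 0.069 (edgeR, adjusted p 3.07e-05). The small heat shock gene Hspb1 had 112, 45.9 and 85 CPM at ZT21 and 21.1, 19.8 and 24.3 CPM at ZT9, with an amplitude of 0.91 ± 0.13 (edgeR, adjusted p 2.12e-04). In each of the 3 the night mice were above all mice at ZT9. Hspe1, which overlaps Hspd1, peaked at 17.8 ± 0.529 h. Hspa8, the most abundant by count, had 1775, 2184 and 2059 CPM at ZT17 and 671, 693 and 1149 CPM at ZT5, but also 1743, 1366 and 1399 CPM at ZT1, and its 24 h amplitude was 0.48 ± 0.13 (edgeR, adjusted p 0.0359). It was high at ZT1, ZT13 and ZT17 and low at ZT5, ZT9 and ZT21, and the 24 h call was lost without any 1 of 9 mice: replicates 1 and 2 at ZT5, each mouse at ZT9, replicate 2 at ZT13 or each mouse at ZT17. The count of the list was 8 without the mice of ZT5, of ZT17, of replicate 2 or of replicate 3. The cold-inducible genes Rbm3 and Cirbp, 2 of 2 called, peaked in the light instead. Rbm3 had 26.7, 35.5 and 30.3 CPM at ZT9 and 9.18, 16.8 and 11.1 CPM at ZT1, with a peak at 10.8 ± 0.523 h and an amplitude of 0.61 ± 0.084 (edgeR, adjusted p 9.57e-05). Cirbp had 20.8, 21.6 and 15.9 CPM at ZT5 and 6.73, 6.66 and 7.61 CPM at ZT17, with a peak at 6.42 ± 0.8502 h and an amplitude of 0.52 ± 0.12 (edgeR, adjusted p 0.00585). Their high and low times did not overlap, and Cirbp was not called without the mice of ZT5, of ZT17 or of replicate 2.

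The rhythmic genes of protein folding in the endoplasmic reticulum had a mean peak near lights on. Of 19 tested, 10 (52.6%, against 23.4%) were rhythmic, with a median amplitude of 0.35 and a mean peak at 22.9 h. Pdia4, a disulfide isomerase, had 358, 243 and 321 CPM at ZT1 and 121, 136 and 148 CPM at ZT9, with a peak at 23.8 ± 0.617 h and an amplitude of 0.53 ± 0.086 (edgeR, adjusted p 4.05e-04). Hsp90b1, Calr and Sdf2l1, further chaperone genes, peaked at 2 h, 22.8 h and 23.7 h with amplitudes of 0.34, 0.35 and 0.67. Calr was not called without the mice of ZT9, nor Sdf2l1 without those of ZT1, nor either without those of replicate 3. Hspa5 (BiP), the most abundant by count, had 1724, 1252 and 1442 CPM at ZT1 and 445, 584 and 572 CPM at ZT9, with a 24 h amplitude of 0.45 ± 0.13 and a peak at 22.1 ± 1.099 h (edgeR, adjusted p 0.0418). The 3 mice at ZT1 stood above all other mice, and the cosine call was lost without any 1 of 13 mice, all except replicates 2 and 3 at ZT13, replicate 1 at ZT17 and replicates 1 and 3 at ZT21. It was also lost with a block for the replicate number, where the list had 7 calls. There were 6 calls without replicate 2 at ZT17, 4 without the mice of ZT9 and 2 with all 6 mice of replicate 3 left out.

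Genes for making ribosomes and genes for ribosomal proteins differed in time. Of 27 ribosome biogenesis factors, 18 (66.7%, against 23.4%) were rhythmic, with a median amplitude of 0.35, and 13 of the 18 peaked from 12 to 16 h, with a mean of 14.0 h. Rrp12 had 19.98, 16.1 and 18.7 CPM at ZT13 and 6.02, 4.66 and 7.14 CPM at ZT5, with a peak at 14.4 ± 0.669 h and an amplitude of 0.64 ± 0.11 (edgeR, adjusted p 7.59e-04). Nhp2 (which overlaps Rmnd5b), of the snoRNA particles, had 37.1, 36.9 and 37.8 CPM at ZT13 and 25.7, 22.01 and 23.9 CPM at ZT5, with a peak at 15.7 ± 0.451 h and an amplitude of 0.35 ± 0.042 (edgeR, adjusted p 1.50e-05). Nucleolin (Ncl), the most abundant by count, peaked at 12.7 ± 0.651 h with an amplitude of 0.25, and Nop16 at 17.1 ± 0.544 h with 0.45. The 3 mice at ZT13 were above all at the trough for Rrp12, Nhp2 and Ncl. The count was 10 without the mice of ZT13 and 9 without those of replicate 1.

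Genes of cytosolic ribosomal proteins came later and moved less. Of 83 tested, 63 (75.9%, against 23.4%) were rhythmic, all 63 with a peak from 16 to 20 h and with a mean of 17.7 h, and only 1 had an amplitude of 0.5 or more. Their median amplitude of 0.22 lay below the 0.32 of all rhythmic genes. Rpsa had 710.1, 729 and 605 CPM at ZT17 and 439.7, 464 and 448 CPM at ZT9, with a peak at 18.1 ± 0.5698 h and an amplitude of 0.30 ± 0.045 (edgeR, adjusted p 1.82e-04). Rps18 (which overlaps Vps52), Rpl6 and Rps25 (which overlaps Ccdc84 and Trappc4) peaked at 17.1 h, 17.1 h and 17.3 h with amplitudes of 0.27, 0.22 and 0.30. For Rps2, the most abundant by count, the values were 792, 694 and 691 CPM at ZT17 and 538, 575 and 544 CPM at ZT9, an amplitude of 0.20 ± 0.041 (edgeR, adjusted p 0.003201). All were high at ZT17, the time at which short genes as a whole were high. With the trend with length taken out, 50 of the 83 were called, with a mean peak at 17.5 h. The count was 39 without the mice of ZT17, 13 with all 6 mice of replicate 1 left out, where Rps2 lost its call, and 36 with those of replicate 2 left out, and no single mouse moved it by more than 1.5 times.

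Respiratory chain genes of both genomes had mean peaks in the dark. Of 75 subunits encoded in the nucleus, 63 (84.0%, against 23.4%) were rhythmic, 62 of them with a peak from 16 to 20 h, a mean peak at 17.1 h and a median amplitude of 0.29. None reached an amplitude of 0.5. Ndufs8, of complex I, had 109, 105 and 96.7 CPM at ZT17 and 66.6, 62.2 and 76.5 CPM at ZT5, with a peak at 17.6 ± 0.457 h and an amplitude of 0.31 ± 0.037 (edgeR, adjusted p 1.72e-05). Ndufs4, Ndufv2 and Ndufa11 (which overlaps Vmac), of the same complex, peaked at 16.3 h, 16.9 h and 16.99 h with amplitudes of 0.34, 0.30 and 0.35. Atp5b, the most abundant by count, had no call, and its 1037, 1263 and 1187 CPM at ZT21 overlapped with 993, 1060 and 1186 CPM at ZT5 (edgeR, adjusted p 0.948). With the trend with length taken out, 53 were called, with a mean peak at 16.9 h. Of the 13 subunits encoded in mitochondria, 10 (76.9%) were rhythmic, with a mean peak at 16.6 h and a median amplitude of 0.37. For mt-Nd1 the mice had 8151, 8898 and 8549 CPM at ZT17 and 5164, 4173 and 6183 CPM at ZT5, with a peak at 15.98 ± 0.627 h and an amplitude of 0.38 ± 0.062 (edgeR, adjusted p 4.21e-04). For mt-Co1, the most abundant by count, they had 26530, 36364 and 30326 CPM at ZT17 and 20642, 20404 and 18857 CPM at ZT9, with an amplitude of 0.31 ± 0.057 (edgeR, adjusted p 0.00141), and mt-Nd4 (which overlaps mt-Nd4l) and mt-Cytb peaked at 17.1 h and 16.97 h. The mice at ZT17 were above all mice of the trough for mt-Nd1 and mt-Co1, at the time when the mitochondrial share of counts was highest. That share is the sum of the counts of the mitochondrial genome, these genes among them, so the 2 are not independent. The mitochondrial count was 5 without the mice of ZT17, where mt-Co1 and mt-Cytb lost their calls, and 6 without those of replicate 2, where mt-Co1 lost its call.

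**Figure D4:**
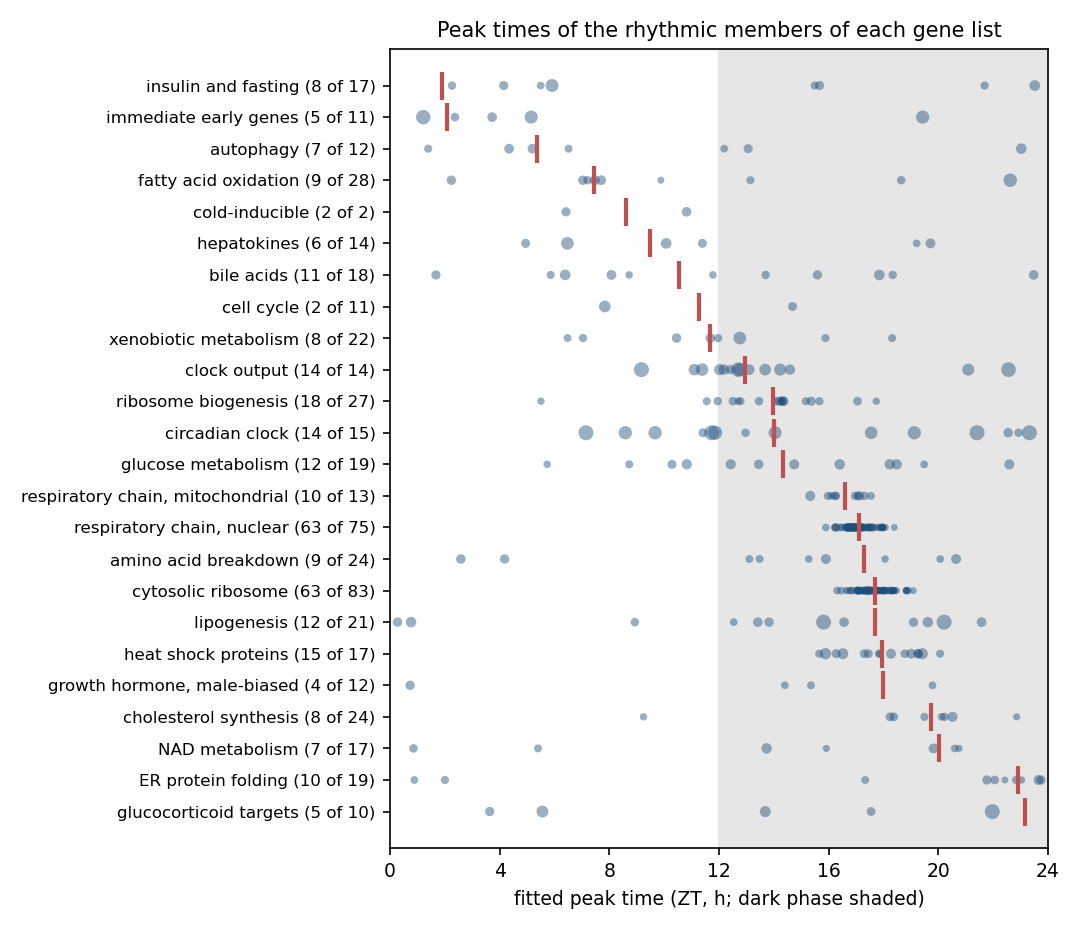
Fitted peak (x axis, ZT in hours, dark phase shaded) of each rhythmic member of 24 gene lists, with larger points for larger amplitudes, the mean peak as a red bar and the number rhythmic of those tested beside each name. Ribosomal protein and respiratory chain genes crowd between 16 and 20 h around means of 17.7 and 17.1 h, while bile acid genes have peaks in all 6 windows of the day.

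Not every daily pattern was a single cosine. A 12 h cosine and sine added to the 24 h terms passed the edgeR test in 127 genes (0.703%), with 1957 at an unadjusted p below 0.05; 49 of the 127 were among the 24 h rhythmic genes and 78 were not. Of 29 clock and output genes 7 had such a component (0.703% of all genes tested), among them Per3 with a 12 h amplitude of 0.78, Tef with 0.52 and Nfil3 with 0.74, so their daily waves departed from a single cosine. Of the 19 folding genes of the endoplasmic reticulum 6 had one. Hspa5 had 12 h crests at 1.404 h and 12 h later (edgeR, adjusted p 0.0236). Actg1, a cytoplasmic actin, had 214, 176 and 204 CPM at ZT17 and 51.2, 77.3 and 58.2 CPM at ZT1, and a 12 h amplitude of 0.64 (edgeR, adjusted p 0.00332). Its 3 mice at ZT17 stood alone above the other 15, with a second, smaller rise at ZT5. Eepd1 had 31.7, 35.5 and 27.5 CPM at ZT5 and 9.35, 7.47 and 7.84 CPM at ZT13, with a 12 h amplitude of 0.72 (edgeR, adjusted p 0.00389). Txlna had 40.3, 44.02 and 43.05 CPM at ZT1 and 40.4, 45.6 and 41.2 CPM at ZT13, against 24.6, 24.8 and 25.7 CPM at ZT5 and 24.9, 29.5 and 28.02 CPM at ZT21, with a 12 h amplitude of 0.38 (edgeR, adjusted p 0.00605). It was high in all 6 mice just after each change of light, and these did not overlap with the mice of ZT5 and ZT21. Slc30a1, a zinc exporter, and 2900026A02Rik completed the 6 genes of lowest p, with 12 h amplitudes of 0.40 and 0.45, and the 24 h call of the latter was lost without replicate 2 at ZT5, and without all mice of ZT5 or of replicate 1 or 3. With 6 times a day a 12 h wave is read from 3 times per cycle. The count was 37 without replicate 2 at ZT13, 59 and 64 without replicates 3 and 2 at ZT1, and 79 without replicate 3 at ZT21. With only 2 mice per time it was between 0 (edgeR, with 1489 at an unadjusted p below 0.05, with DESeq2 run only on all 18 mice, 488 genes) and 50, and it was 17 without all mice of ZT1, 83 without those of ZT13, 204 without those of ZT5 and 270 without those of ZT9.

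Other groups of the series served to ask where these rhythms differed: the 16 Ctr mice of 4 weeks and the 18 HFD mice of 16 weeks. Tested alone in the same way, the Ctr mice of 4 weeks had 1578 rhythmic genes of 17154 (9.20%), with a coefficient of variation of 0.256 around the fit. The HFD mice of 16 weeks had 2805 of 17716 (15.8%), with 0.210. A count of calls in each group is no test of a difference, and the groups differed in spread and the younger one also in number of mice. The interaction of age with the 24 h terms passed the edgeR test in 0 of 16831 genes (0%), with a lowest adjusted p of 0.174, 1465 genes at an unadjusted p below 0.05 and 21 genes called by DESeq2. Of the genes tested in both ages that were rhythmic at 16 weeks, 1089 of 4205 were also rhythmic at 4 weeks, where 9.20% of all genes tested were. Among the 29 clock and output genes 2 had an unadjusted p below 0.05 (edgeR), Per2 and Nr1d2. The Per2 peak lay at 14.05 ± 0.315 h at 16 weeks and at 15.9 ± 0.461 h at 4 weeks, with amplitudes of 1.41 and 1.46 (edgeR, adjusted p of the difference 0.415). The Nr1d2 peak lay at 8.58 ± 0.233 h and at 9.64 ± 0.302 h, with amplitudes of 1.49 and 1.88 (edgeR, adjusted p of the difference 0.444). Both peaks were earlier at 16 weeks, but neither difference passed over all genes.

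At a mean of at least 5 CPM, the 5 genes of lowest p for a difference in age were Fmo2, Fam160b1, Pfdn1, Dpy19l3 and C4a, each with an adjusted p of 0.174 (edgeR). Fmo2, a flavin monooxygenase, had 22.2, 20.5 and 34.3 CPM at ZT13 and 6.57, 8.25 and 7.402 CPM at ZT5 in the 16-week mice. Its amplitude was 0.85 ± 0.11 at 16 weeks and 1.68 ± 0.12 at 4 weeks. The fitted peaks lay at 14.4 h and 15.4 h. C4a, a complement gene in a region of near copies, had 83.4, 134 and 45.3 CPM at ZT13 and 16.6, 7.91 and 8.74 CPM at ZT5 in the 16-week mice, with an amplitude of 1.27 ± 0.18, and an amplitude of 0.11 ± 0.18 at 4 weeks. Fam160b1 and Pfdn1 were rhythmic at 16 weeks, with amplitudes of 0.38 and 0.25, and not called at 4 weeks, and Pfdn1 was not called at 16 weeks without the mice of replicate 2. Dpy19l3 had the reverse pattern, with 0.15 at 16 weeks and 0.52 at 4 weeks.

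The interaction of maternal diet with the 24 h terms, among the mice of 16 weeks, passed the edgeR test in 0 of 17409 genes (0%), with a lowest adjusted p of 0.225, 2094 genes at an unadjusted p below 0.05 and 62 genes called by DESeq2. None of the 29 clock and output genes had an unadjusted p below 0.05 in that edgeR test, so 0 of 29. Of the rhythmic genes of the Ctr mice that were tested in both diets, 1735 of 4221 were also rhythmic in the HFD mice, where 15.8% of all genes tested were. At a mean of at least 5 CPM, the genes of lowest p included Dct, Elob, Dad1 and Kif3b, each with an adjusted p of 0.225 (edgeR). Dct had 12.4, 13.1 and 9.54 CPM at ZT17 and 4.86, 3.53 and 5.48 CPM at ZT1 in Ctr mice, an amplitude of 0.74 ± 0.11 with a peak at 17.01 h, while in HFD mice its amplitude was 0.28 ± 0.16. Elob, which overlaps Srrm2, peaked at 17.2 ± 0.594 h in Ctr and at 23.1 ± 1.07 h in HFD mice, with amplitudes of 0.36 and 0.23. Dad1 peaked at 16.98 h with an amplitude of 0.28 in Ctr mice and was not called in HFD mice, where its amplitude was 0.12. Kif3b peaked at 6.42 h and 11.98 h, with amplitudes of 0.30 and 0.36. Kif3b was not called in Ctr mice without those of ZT9, of ZT17 or of any 1 replicate number.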

How the data were processed

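Counts per gene, deposited by the authors, were used as they stand. The processing notes of the submitters name HISAT2 2.0.5 and featureCounts 1.5.0-p3 with GRCm38/mm10, and do not give the strand setting. The 18 Ctr mice of 16 weeks were fitted alone with edgeR 4.0.16 (TMM, quasi-likelihood F test of the cosine and sine terms, 2 degrees of freedom, Benjamini-Hochberg over all genes tested). Genes needed a count above 0 in 50% of the mice. Differences in rhythm were tested as interactions with the 4-week Ctr or 16-week HFD mice. The method was tested on simulated data. Alternatives were DESeq2 1.42.0 (likelihood ratio test), DESeq2 size factors, no filter, filterByExpr, periods of 20 and 28 h, time as 6 levels, replicate block, both diets in 1 fit, leaving out mice, replicates or times, an adjusted p of 0.01, and removing a trend with gene length, which was chosen after seeing the data.

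Members and lists were chosen with earlier results of these data known. Named are all clock and output genes; the 10 of largest amplitude (mean of at least 1 CPM); the 5 of lowest p in each peak window, 6 for a 12 h component and 5 for each difference (at least 5 CPM); and in other lists up to 4 of lowest p and the most abundant. A few genes under this rule are not reported here, and genes outside it were not described singly. Columns that matched no sample, 2 in number, were not used.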

Additional observations from a re-analysis of the deposited data

How the results depend on the processing

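Of 173 named genes, 150 were called, 115 of them in every alternative run, 35 lost the call in at least 1, and 11 with a single mouse left out. Of the 150 called, 0 turned their peak, which was not checked for the 23 not called. Of the 23 not called, 11 were called in at least 1 alternative. The number of rhythmic genes (4234) was 2465 without ZT17, 2295 at an adjusted p below 0.01, 2086 to 2338 without 1 replicate number and 3545 to 4337 without 1 mouse. DESeq2 gave 5020, DESeq2 size factors 4234 (4191 shared), no filter 4101, filterByExpr 4560, periods of 20 and 28 h 4526 and 3364, and both diets in 1 fit 3893. Genes of amplitude 0.5 or more (1034) were 655 without replicate 2, 663 at 0.01 and 881 to 1135 without 1 mouse. The share of peaks in the dark (51.5%) was 49.78% with filterByExpr, 45.27% at a period of 20 h, 58.19% with the trend with length removed, 53.57% without ZT13, 53.75% without ZT9, 54.38% at 0.01, up to 54.79% without 1 replicate number and 50.59% to 52.51% without 1 mouse. The median amplitude was 0.3042 with filterByExpr, 0.3469 with no filter, 0.3398 at 20 h, 0.3652, 0.3521, 0.3605, 0.3498, 0.3688 and 0.3509 without ZT1, ZT5, ZT9, ZT13, ZT17 and ZT21, 0.365 at 0.01, 0.3824 to 0.4123 without 1 replicate number and 0.3198 to 0.3357 without 1 mouse. The 12 h count (127) was 488 with DESeq2, 1003 with no filter, 59 and 291 at 20 and 28 h, 17, 204, 270 and 83 without ZT1, ZT5, ZT9 and ZT13, 20 at 0.01, 0 (1489 at an unadjusted p below 0.05, edgeR) to 50 without 1 replicate number and 37 to 134 without 1 mouse. Differences in rhythm, 0 with edgeR, were 21 and 62 with DESeq2. Library measures called by permutation (4 of 13) were 0 without ZT1, ZT9, ZT13 or ZT17 (3, 4, 3 and 4 unadjusted), 2 without ZT5, 0 (7 unadjusted) to 2 without 1 replicate number and 3 to 6 without 1 mouse. Of the list counts, 815 stayed within 1.5 times and 73 moved further, 72 of them lower. The cause was not tested, except that a stricter threshold lowers a count by construction.

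Pairs of mice with the same replicate number, 45 in all, had a median correlation of 0.049, with 17 above 0.1, and 90 others -0.031, with 12 above 0.1, and with a block for it 4289 genes and 177 12 h components were called, and Hspa5 and Alas2 were not. Time as 6 levels gave counts only. Removing 1 time leaves 5 times and a gap. With 3 mice per time and 1 cycle, recurrence from day to day was not tested, small rhythms of genes below 1 CPM were not detectable, and bulk RNA does not separate cell types.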
